A study of Mus musculus with 15 samples.

Results

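The libraries described here are the 2 of 15 mouse brain RNA-seq libraries that were rich in cerebellar RNA, control 2 and levodopa 2, set against the remaining 13. They were chosen by their counts: both had over 100 CPM (reads scaled to the library total) for Gabra6, a GABA-A receptor subunit of cerebellar granule cells, and the other 13 did not. The series asked how an inhibitor of Bruton tyrosine kinase (BTK), a kinase of B cells and microglia, acts in mice given MPTP, a toxin of dopamine neurons. Mice of 4 groups received MPTP into the abdomen at 20 mg/kg/day for 1 week, and 3 of these groups then received a drug for 4 weeks. These drugs were the inhibitor at a low dose (1 µg/kg/day, also labelled 25 pM), the inhibitor at a high dose (2 µg/kg/day, also labelled 50 pM), or levodopa at 2 mg/kg/day, for which the labels name both the oral and the abdominal route. The fourth group had MPTP with no drug after it, and controls were kept on normal diet, for which the labels give both 5 and 6 weeks. Each group had 3 libraries, while the protocol gives 8 mice per group, and the time label of every library is 6 weeks. The labels name the tissue as brain, with no region, and they give no strain, genotype, sex or age. Whether the libraries come from different mice is not stated either, so the spread between libraries may in part be technical.

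The cerebellum is dominated by granule cells, small excitatory neurons whose parallel fibres contact the dendrites of Purkinje cells, the output neurons of the cerebellar cortex. Purkinje cells are known for very high levels of calcium-handling proteins and for their loss or dysfunction in many inherited ataxias. Bergmann glia, the radial astrocytes of the Purkinje layer, and inhibitory interneurons complete the cortex. Dopamine neurons, striatal projection neurons and hypothalamic peptide neurons lie in other parts of the brain.

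Stretches around a listed transcription start are shown for Gabra6, which defined the libraries, and for the cerebellar markers Fat2, Cbln3 and Pcp2. These 4 genes had the largest differences. Each run holds 250 bases before and 50 bases after a transcription start in RefSeq for GRCm38.p6. The runs are written 5′ to 3′ on the minus strand, on which all 4 genes lie. They cover chr11:42321023-42321322 for Gabra6, chr11:55312208-55312507 for Fat2, chr14:55884207-55884506 for Cbln3 and chr8:3625498-3625797 for Pcp2, which has 4 starts in the table, of which the first is shown. Capitals mark a match to the half-site TTGGCA of the NFI factors, read on the other strand as TGCCAA, or to the E-box CAGATG bound by NEUROD1. The Fat2 run holds neither. It lies inside the annotated span of the gene (55250609 to 55337505), so the stretch before the 5′ end of that span is not shown and was not searched for Fat2.
Gabra6: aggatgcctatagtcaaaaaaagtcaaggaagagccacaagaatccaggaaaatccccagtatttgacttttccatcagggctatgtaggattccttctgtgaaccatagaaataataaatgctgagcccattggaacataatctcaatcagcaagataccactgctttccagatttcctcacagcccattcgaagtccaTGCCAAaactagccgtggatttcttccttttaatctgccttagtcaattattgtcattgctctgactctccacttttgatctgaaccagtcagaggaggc
Fat2: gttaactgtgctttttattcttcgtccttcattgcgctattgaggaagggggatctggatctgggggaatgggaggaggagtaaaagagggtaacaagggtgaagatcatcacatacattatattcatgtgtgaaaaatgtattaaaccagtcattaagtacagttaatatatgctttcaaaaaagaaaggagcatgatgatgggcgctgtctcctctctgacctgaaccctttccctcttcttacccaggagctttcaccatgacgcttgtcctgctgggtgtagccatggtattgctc
Cbln3: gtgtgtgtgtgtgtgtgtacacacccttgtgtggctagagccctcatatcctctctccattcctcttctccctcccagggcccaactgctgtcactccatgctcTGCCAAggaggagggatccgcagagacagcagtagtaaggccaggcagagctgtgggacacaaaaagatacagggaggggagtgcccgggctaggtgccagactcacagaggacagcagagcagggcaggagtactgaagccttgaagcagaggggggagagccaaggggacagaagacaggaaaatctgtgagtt
Pcp2: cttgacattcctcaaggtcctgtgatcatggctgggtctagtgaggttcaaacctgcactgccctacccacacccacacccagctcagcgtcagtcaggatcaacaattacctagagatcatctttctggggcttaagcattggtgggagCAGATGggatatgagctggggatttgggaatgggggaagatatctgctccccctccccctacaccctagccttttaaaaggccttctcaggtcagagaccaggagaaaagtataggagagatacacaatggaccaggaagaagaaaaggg
The half-site began 50 bases before the start of Gabra6 and 146 bases before that of Cbln3, and the E-box 100 bases before that of Pcp2. Searched on both strands, TTGGCA was present in 14.5% of 221 promoters of the gained genes described below, in 12.0% of 416 promoters of lost genes and in 14.4% of all 27025 promoters. CAGATG was in 14.9%, 15.9% and 17.2% of them in the same order. The full palindrome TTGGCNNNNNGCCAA was in 0 of 221, 0 of 416 and 11 of 27025 (0.0407%). These shares were close to each other, and a match is a stretch of letters, not a measured binding site.

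Depth was similar in all libraries, with 63314658 and 64384017 counted reads in control 2 and levodopa 2 and 58149722 to 68257095 over all 15, so that 3 reads correspond to at most 0.0516 CPM. The share of reads from mitochondrial ribosomal RNA was 0.244% and 0.393% in control 2 and levodopa 2, against 0.656% to 1.48% in the other 13. Ribosomal protein genes, 83 in number, took 0.771% and 0.763%, against 1.07% to 1.70%. Fewer genes were detected above 1 CPM in control 2 and levodopa 2 (14993 and 15072) than in any other library (15519 to 15821). The part of these differences in the results below was not tested.

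The 3 markers were far apart between the sets. Gabra6 (chromosome 11, 42306437 to 42321072 of GRCm38.p6) stood at 624 CPM in control 2 and at 536 CPM in levodopa 2. Across the other 13 its lowest, median and highest values were 0, 0.428 and 3.29 CPM, so no library lay near the threshold of 100 CPM. Where 3 values are given for the 13 other libraries below, they are likewise the lowest, the median and the highest. Cbln3, a secreted cerebellin that pairs with CBLN1 in granule cells (chromosome 14, 55878920 to 55884256), had 1746 and 1399 CPM in control 2 and levodopa 2, against 0.662, 1.15 and 6.04 CPM. Pcp2, a G protein regulator of Purkinje cells also called L7, had 246 and 162 CPM, against 0, 0.189 and 2.37 CPM. Levodopa 3 was the highest of the 13 for all 3 markers, at 0.567%, 0.384% and 1.16% of the mean of the cerebellum-rich libraries for Gabra6, Cbln3 and Pcp2. Gabra6 was at 0 reads in control 1, MPTP 2, MPTP 3 and high-dose inhibitor 2. In bulk tissue, more or fewer cells of a type and more or less RNA per cell cannot be told apart. All values comparing these 2 libraries with the 13 describe libraries that were picked by their expression, so no test is given for them.

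**Figure D1:**
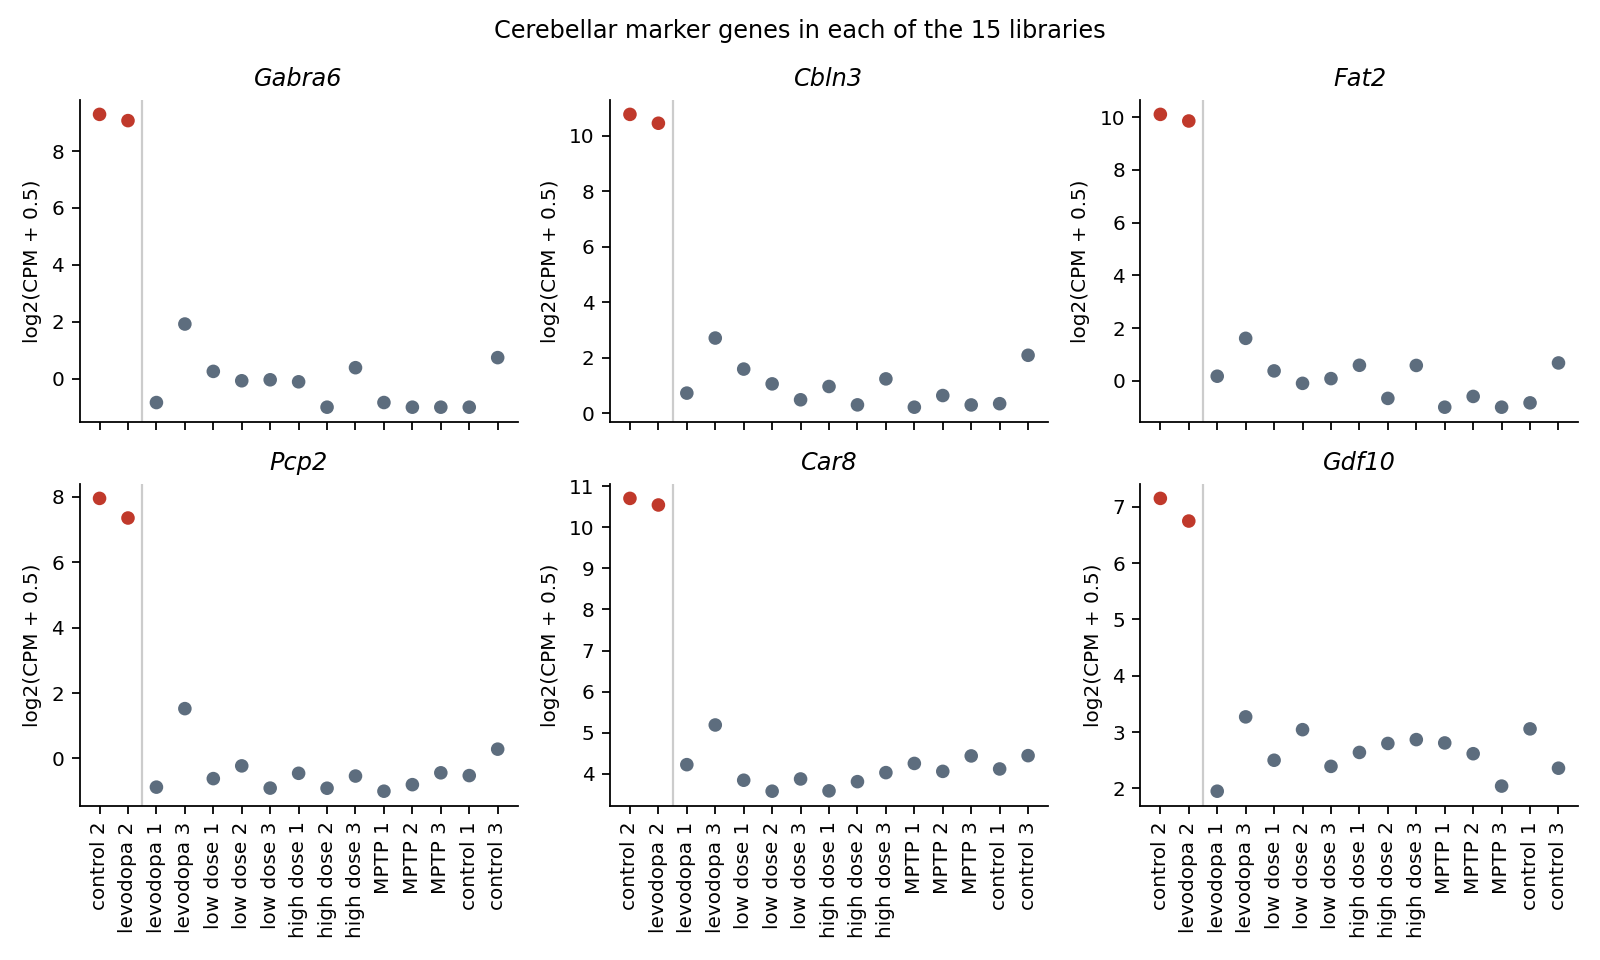
Levels of 6 cerebellar genes on the log2(CPM + 0.5) scale (y axis) in each of the 15 libraries (x axis), with the cerebellum-rich control 2 and levodopa 2 in red at the left of the line and the 13 others in grey. Gabra6 lies at 624 and 536 CPM in the red libraries and at most at 3.29 CPM, in levodopa 3, among the grey ones.

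Differences between the sets are given as the mean log2(CPM + 0.5) of the 2 cerebellum-rich libraries minus that of the 13 others, a scale that understates the difference of genes near 0. A gene is called gained when both libraries lay above all 13 others, by any amount, and this difference of means was at least 2, that is 4-fold. It is called lost in the mirrored case. The nearest libraries of the 2 sets were 4-fold or more apart in 167 gained and 243 lost genes. Of 15830 genes with a mean of at least 1 CPM over all 15 libraries, 316 (2.00%) were gained and 575 (3.63%) were lost. The median difference over all 15830 genes was -0.07. Without the size limit, 3353 genes (21.2%) were above and 4090 (25.8%) below all 13 others, and these shares stand as the background of the counts below, which the choice of libraries also shaped. Fewer genes were gained than lost, but the gained ones carried more reads. They took 5.25% and 4.55% of all reads in control 2 and levodopa 2, against 0.578% to 0.701% in the 13 others, while the lost genes took 0.259% and 0.387%, against 1.88% to 3.16%. Gained genes included 267 protein-coding genes and 36 long non-coding RNAs, and lost genes 520 and 41. A log2 difference of 6 or more in size was reached by 11 gained genes and by 1 lost gene.

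**Figure D2:**
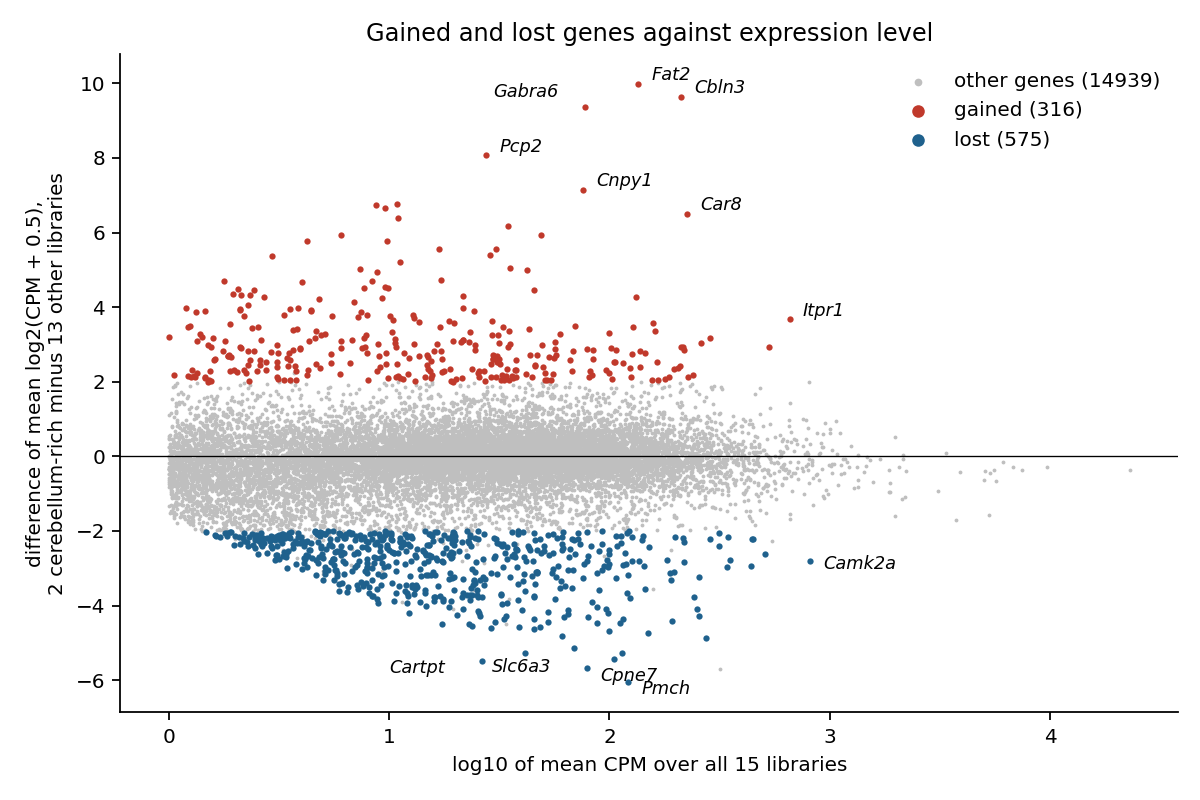
Difference of mean log2(CPM + 0.5), cerebellum-rich minus other libraries (y axis), against log10 of the mean CPM over all 15 libraries (x axis) for 15830 genes, with 316 gained genes in red, 575 lost genes in blue and the others in grey. The gained genes Fat2 (9.98), Cbln3 (9.64) and Gabra6 (9.38) reached further from 0 than any lost gene, of which Pmch (-6.06) was the farthest.

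Genes of granule cells were nearly all gained. Of 23 genes in the granule cell list, 20 were gained, 0 were lost and 22 lay above all 13 others, with a median log2 difference of 3.01. Summed over the list, control 2 had 10240 CPM and levodopa 2 had 8417 CPM, against 561 to 1533 CPM in the others. Fat2, the giant protocadherin of parallel fibres, had the largest difference of all genes, 9.98, with 1097 and 922 CPM against 0, 0.56 and 2.55 CPM as lowest, median and highest of the 13. The ratio of its means was 1556. Each of the 13 libraries thus held little or no Fat2 RNA.

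Transcription factors of the granule lineage were among these genes. Neurod1, which is needed for granule cells to form, had 378 and 283 CPM in control 2 and levodopa 2, against 2.24, 5.74 and 9.89 CPM. Pax6, a homeobox factor of granule cell precursors, had 108 and 89 CPM, against 7.44, 11.98 and 14.5 CPM. En2, an engrailed factor that patterns the cerebellum, had 103 and 99.7 CPM, against 1.12, 2.5 and 11.4 CPM. The highest En2 value among the 13 was that of MPTP 3, which also had the highest Barhl1 and En1. Neurod2, shared with cortical neurons, had a smaller gap, with 117 and 103 CPM against 1.08, 7.58 and 58.2 CPM, the highest in low-dose inhibitor 3. Etv1 (2.78), Barhl1 (2.74) and Mab21l1 (3.01) were also gained. Barhl1 had 15.2 and 17.8 CPM in control 2 and levodopa 2, close to the 12.1 CPM of MPTP 3.

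Receptor, release and adhesion genes of granule cells completed the block. Grin2c, the NMDA receptor subunit of mature granule cells, had 676 and 533 CPM in control 2 and levodopa 2, against 41.9, 49.7 and 73.2 CPM. Gabrd, the delta subunit that joins the alpha6 subunit in receptors outside the synapse, had 163 and 139.8 CPM, against 1.98, 39.3 and 54.5 CPM. Chn2, a Rac-regulating chimaerin, had 830.3 and 707 CPM, against 48.8, 62.97 and 84.4 CPM. The spread of Chn2 over the 13 was narrow, at 64.5 ± 9.46 CPM (SD, n = 13). Cdh15, a cadherin also known from muscle, differed by 4.55, Reln, the secreted lamination signal, by 2.50, and Cadps2, a vesicle priming factor, by 2.18. Slc17a7, the vesicular glutamate transporter VGLUT1, was the 1 member that did not lie above all others: it had 512 and 428 CPM, against 5.85, 144 and 769 CPM, the highest in low-dose inhibitor 1. Cortex and hippocampus also use this transporter.

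Most Purkinje cell genes were gained too. Of 30 listed genes, 18 were gained, 0 were lost, 27 lay above all 13 others and 1 lay below, with a median difference of 2.82. Summed over this list, control 2 had 16170 CPM and levodopa 2 had 12510 CPM, against 2627 to 3530 CPM in the others. Car8, an inactive carbonic anhydrase that binds the IP3 receptor (chromosome 4, 8141493 to 8239041), had 1662 and 1487 CPM, against 11.5, 16.2 and 36.03 CPM. Itpr1, that receptor itself, had 3771 and 2630.0 CPM, against 150.0, 229 and 526 CPM. Both genes of this calcium release step were thus far above the range of the 13.

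Ppp1r17, the phosphatase inhibitor known as G-substrate, had 241 and 234 CPM in control 2 and levodopa 2, against 1.22, 2.13 and 8.7 CPM. Homer3, a scaffold of Purkinje spines, had 281 and 244 CPM, against 5.97, 10.4 and 24.2 CPM. Arhgef33, a guanine nucleotide exchange factor, had 211 and 194 CPM, against 2.41, 3.74 and 8.5 CPM. In all 3 genes the values of control 2 and levodopa 2 lay close together. Grid2ip, a scaffold protein of parallel fibre synapses, differed by 2.82. Slc1a6, the Purkinje glutamate transporter EAAT4, differed by 3.26, Rgs8 by 3.17, Gng13, a G protein gamma subunit, by 3.33, Calb1, the calcium buffer calbindin, by 2.84, and Pvalb, parvalbumin, by 2.90.

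Some Purkinje genes that other regions also express stood out less. Pcp4, a calmodulin regulator also present in striatum and cortex, had 394 and 238 CPM in control 2 and levodopa 2, against 95.6, 274 and 424 CPM, within the range of the 13. Aldoc, the zebrin of Purkinje stripes and a glycolytic enzyme of astrocytes, had 2032 and 1126 CPM, against 548, 920.1 and 1192 CPM. Foxp2, a forkhead factor of Purkinje cells, thalamus and striatum, was the 1 listed gene below all others, with 9.79 and 16.1 CPM against 21.8, 41.6 and 69.8 CPM. Another 9 members lay above all 13 without reaching the size limit, among them Plcb3, Plcb4, Lhx5, Rora, Cacna1g, Mtss1 and Dner, with differences from 1.05 to 1.75.

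Genes of cerebellar interneurons were split. Of 13, 6 were gained, 6 lay above all others and 1 lay below, with a median of 1.02. Slc6a5, the glycine transporter of Golgi cells and of hindbrain glycinergic neurons, had 53.2 and 37.03 CPM in control 2 and levodopa 2, against 0.102, 1.43 and 17.9 CPM, the highest in levodopa 1. Kit, a receptor of basket and stellate cells, had 266 and 183 CPM, against 19.2, 29.7 and 45.3 CPM. Eomes, a marker of unipolar brush cells, had 16.7 and 11.99 CPM, against 0.0594, 2.96 and 7.56 CPM. Lmx1a and Calb2, of the same list, did not follow Eomes. Lmx1a lay within the range of the 13 (1.79 and 0.932 CPM, against 0.305 to 3.91 CPM). Calb2 had 408 and 252 CPM, against 77.6, 160 and 294 CPM, so levodopa 2 lay inside the range. Pax2 (3.51), Tfap2a (3.45) and Tfap2b (3.59), factors of inhibitory precursors and interneurons, were gained as well. The gap of Tfap2b was narrow, with 74.3 and 57.9 CPM in control 2 and levodopa 2 against up to 42.8 CPM, in levodopa 1. Nxph1, a neurexin ligand of interneurons in many regions, was lower, with 12.8 and 13.5 CPM against 28.1, 40.96 and 54.2 CPM. Grm2, the receptor of Golgi cells, lay within the range of the 13 (21.4 and 19.3 CPM, against 14.5 to 33.03 CPM).

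Of 11 matched Bergmann glia genes, 5 were gained and 10 lay above all 13 others, with a median of 1.97. Gdf10, a growth factor of the BMP family, had 141 and 107 CPM in control 2 and levodopa 2, against 3.37, 5.73 and 9.15 CPM. Dao, the D-amino acid oxidase of hindbrain astrocytes, had 50.3 and 45.2 CPM, against 0.17, 0.946 and 3.16 CPM. A2m (3.08), Hopx (2.30) and the matrix gene Tnc (2.11) were the other gained members. Slc1a3, the glutamate transporter GLAST, had 1537 and 1312 CPM, against 316, 589.7 and 695 CPM. Fabp7, a fatty acid binding protein of radial glia, lay within the range of the others (38.6 and 21.1 CPM, against 16.3 to 42.2 CPM).

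Several of the 15 gained genes with the largest differences are better known outside the brain. Mybpc3, the cardiac myosin-binding protein C, had 85.98 and 74.04 CPM in control 2 and levodopa 2, against 0.0301, 0.271 and 0.586 CPM. Crtam, an adhesion molecule of cytotoxic T cells, had 63.6 and 66.5 CPM, against 0, 0.086 and 0.308 CPM. Ptpn22, a tyrosine phosphatase of lymphocytes, had 109 and 118 CPM, against 0.813, 2.07 and 3.63 CPM. For each of the 3 genes the gap between the nearest libraries was larger than the whole range of the 13. Ltbp2, a latent TGF-beta binding protein of the matrix, differed by 6.39, the kinase gene Nrk by 6.67, and Il20rb, a receptor subunit for cytokines of the IL-20 family, by 5.76. Cnpy1, a canopy gene known from zebrafish as a regulator of FGF signalling at the midbrain-hindbrain boundary, had 513 and 564 CPM, against 0.95, 3.04 and 14.1 CPM. Hes3, a repressor of the Hes family, differed by 5.94.

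Some gained genes lay close to another gained gene. Among protein-coding gained genes without predicted symbols, 15 pairs of consecutive ones lay within 100 kb. Genes that were not gained may lie between the members of a pair. No such count was made for other genes, so the number is not read as clustering. En2 and Cnpy1 lie 28628 bases apart on chromosome 5, and differed by 4.73 and 7.14. Hes3 and Icmt, a Purkinje-list gene that encodes a protein methyltransferase, lie 5302 bases apart on chromosome 4 and differed by 5.94 and 2.82. Ptpn22 and Bcl2l15 on chromosome 3 are 1956 bases apart (5.57 and 4.51), Neurod1 and Cerkl on chromosome 2 are 23648 bases apart (5.93 and 3.09), and Zic2 and Zic5 on chromosome 14 are 9725 bases apart (2.72 and 2.63). For pairs this close, and for the 3 pairs whose gene spans overlap (among them Soga1 and Tldc2, and Tmem200b and Epb41), reads of one gene may have been counted for the other, since no source used here gives the strand and overlap settings of the counting.

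Most hypothalamic genes were lost, and their list had the lowest median of the region and cell type lists against all 13 other libraries. Against the other control and levodopa libraries alone its median was -2.65, and those of the serotonin and noradrenaline (-3.80), striatal (-3.04) and cholinergic and habenula lists (-3.02) were lower. Of 16 listed genes above 1 CPM, 12 were lost and 0 gained, with a median difference of -3.44, and the whole list summed to 23.3 and 35.5 CPM in control 2 and levodopa 2, against 123 to 955.5 CPM. Pmch, the precursor of melanin-concentrating hormone, had the largest difference of all lost genes, -6.06, with 0.0948 and 0.233 CPM against 0.322, 114 and 446 CPM. Cartpt, the CART peptide gene, had 0 and 0.0621 CPM, against 11.7, 17.3 and 98.01 CPM. Some of these peptides also varied widely among the 13, at least 1 of which held almost no Pmch. Avp, the vasopressin gene, and the factors Nkx2-1 and Sim1 had 0 reads in both control 2 and levodopa 2. Their medians over the 13 were 4.84, 5.68 and 2.3 CPM. Trh, thyrotropin-releasing hormone, had 0.3 and 0.0621 CPM, against 3.92, 16.6 and 65.7 CPM, and Sst, somatostatin, had 2.54 and 10.7 CPM, against 47.3, 71.8 and 180.5 CPM. Hdc, the histamine-forming enzyme, lay within the range of the others (6.13 and 5.92 CPM, against 1.68 to 15.6 CPM), as did Npy.

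Striatal genes fell into a lost and an overlapping class. Of 16, 9 were lost and 11 lay below all 13 others, with a median of -3.31. Drd1, a dopamine receptor, had 0.158 and 0.637 CPM in control 2 and levodopa 2, against 2.57, 16.7 and 90.8 CPM. Tac1, the substance P precursor, had 0.379 and 3.94 CPM, against 27.2, 39.2 and 87.1 CPM. Pdyn, prodynorphin, had 0.126 and 1.4 CPM, against 4.92, 34.9 and 65.6 CPM. Control 1 was the highest of the 13 for most striatal genes. By contrast Ppp1r1b, the phosphatase inhibitor DARPP-32, had 125 and 136 CPM, against 16.8, 99.1 and 536 CPM, and Penk, proenkephalin, had 98.1 and 95.6 CPM, against 32.9, 134 and 522 CPM. Neither gene set the libraries apart.

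Of 14 dopamine neuron genes above 1 CPM, 5 were lost and 6 lay below all others, with a median of -2.03. Slc6a3, the dopamine transporter, had 0 and 0.124 CPM in control 2 and levodopa 2, against 0.611, 54.5 and 122 CPM. Slc18a2, the vesicular monoamine transporter, had 0.126 and 2.69 CPM, against 4.51, 41.6 and 97.6 CPM. Ddc (-2.69), Drd2 (-3.97) and Sncg, gamma-synuclein (-2.65), were the other lost members. Th, tyrosine hydroxylase, which starts dopamine synthesis and which some Purkinje cells of rodents also transcribe, had 7.14 and 3.17 CPM, against 4.31, 27.6 and 68.6 CPM, so control 2 lay inside the range of the 13. Nr4a2, which encodes Nurr1, was not depleted: it had 26.5 and 11.9 CPM, against 4.63, 17.4 and 31.4 CPM. Aldh1a1 and Ret also lay within the range of the 13.

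The medians of the other regional lists were below 0 as well. Of 15 cortical and hippocampal genes 4 were lost (median -2.36), namely the postsynaptic calmodulin binder Nrgn (-4.29), the kinase Camk2a (-2.81) and the factors Lhx2 (-3.89) and Emx2 (-3.13). Of 7 cholinergic and habenula genes 5 were lost (median -2.79), with Chat, the enzyme of acetylcholine synthesis, at 0 and 0.124 CPM in control 2 and levodopa 2, against 2.09, 6.44 and 10.9 CPM. Of 5 serotonin and noradrenaline genes above 1 CPM 1 was lost, the serotonin receptor Htr1a (0.205 and 1.97 CPM, against 10.5, 19.8 and 24.7 CPM). Of 13 thalamus and midbrain genes, the troponin gene Tnnt1 was lost and 1 was gained. The gained gene was Barhl2, a homeobox factor listed for midbrain, which had 42.8 and 28.7 CPM, against 0.441, 2.01 and 6.1 CPM.

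Among the lost genes with the largest differences, 2 were copines, calcium-dependent membrane binders. Cpne7 had 0.49 and 2.35 CPM in control 2 and levodopa 2, against 41.7, 87.96 and 139 CPM, and Cpne5 had 0.332 and 4.82 CPM, against 17.8, 44.7 and 111 CPM. Camkv, a kinase-like protein of neuronal vesicles, had 4.08 and 19.8 CPM, against 134, 346 and 508 CPM. Levodopa 2 was the higher of the pair in each of these genes, and still below every one of the 13. Gda, guanine deaminase, differed by -5.26, Dlk1, a Delta-like membrane protein, by -5.14, Baiap3, a factor of dense-core vesicle release, by -4.73, Col25a1, a membrane-bound collagen, by -4.68, the peptidase-family gene Ecel1 by -4.57, and AW551984 by -4.83.

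Markers of the neighbouring hindbrain and of the choroid plexus were looked at as well. The 17 listed Hox genes, which mark the medulla and spinal cord, summed to 1.85 and 0.373 CPM in control 2 and levodopa 2, against 0.0339 to 0.479 CPM. No Hox gene reached a mean of 1 CPM. Of 13 choroid plexus genes, 2 were lost, Sostdc1 and the prolactin receptor gene Prlr, and the median was -1.20. Ttr, the transthyretin that defines this tissue, had 91.8 and 5.7 CPM in control 2 and levodopa 2, against 1.23, 260.5 and 1444 CPM.

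**Figure D3:**
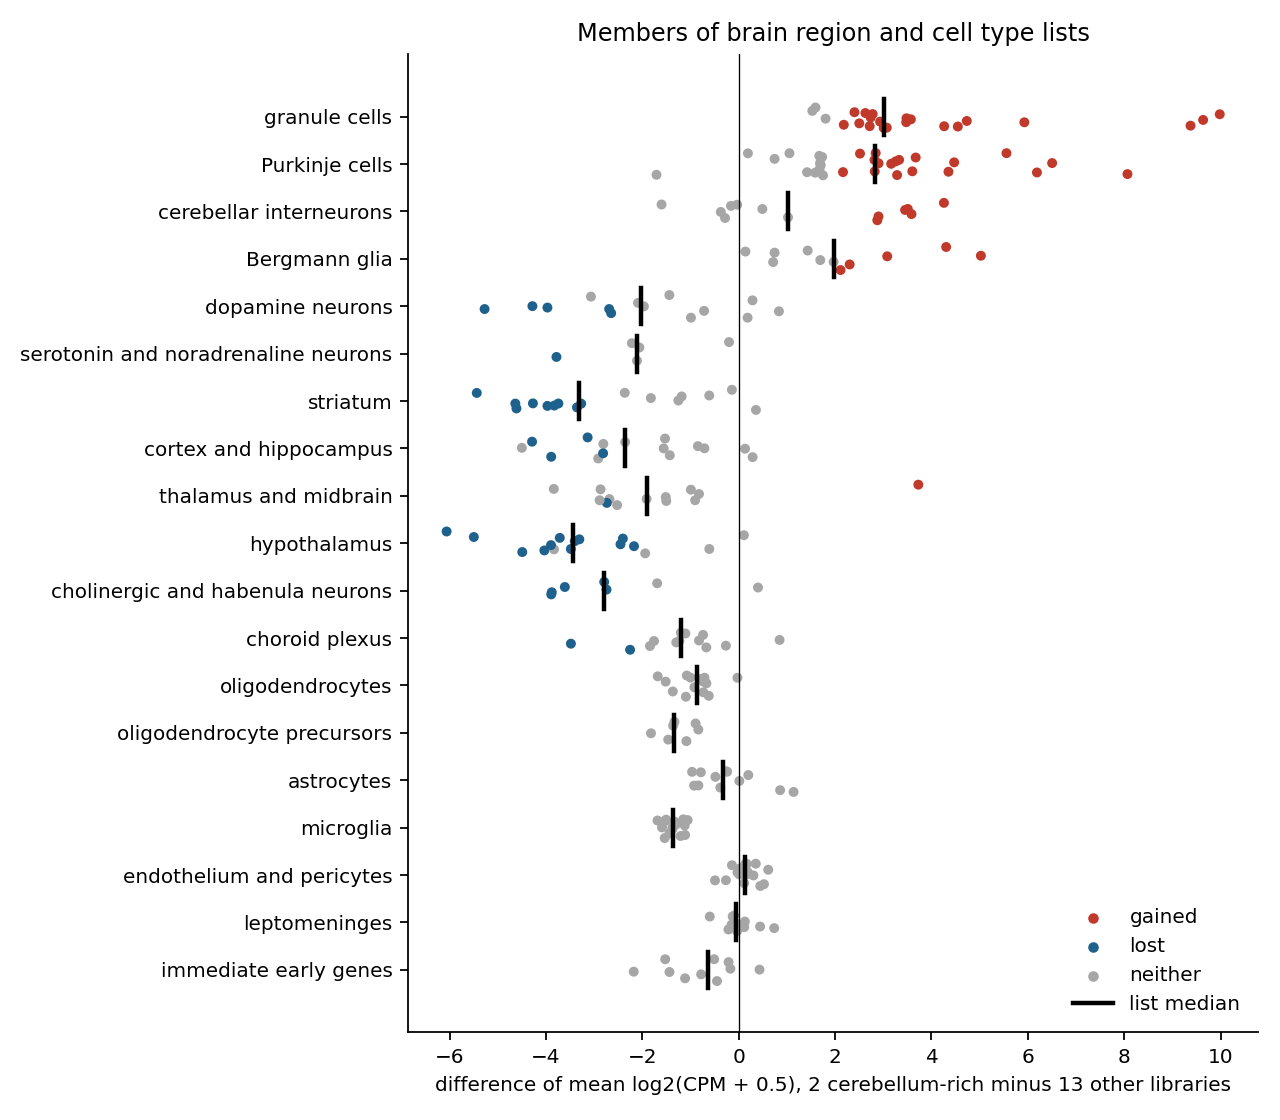
Difference of mean log2(CPM + 0.5), cerebellum-rich minus other libraries (x axis), for each member of 19 lists of brain region and cell type genes (rows), with gained genes in red, lost genes in blue, others in grey and the list median as a black bar. The medians run from 3.01 for granule cells to -3.44 for the hypothalamus, and lie near 0 for endothelium and pericytes (0.14) and leptomeninges (-0.06).

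No listed gene of microglia, oligodendrocytes, their precursors or astrocytes was lost, against 3.63% of all genes. Many genes of microglia, oligodendrocytes and their precursors lay below all 13 other libraries, as did 25.8% of all genes. All 16 microglia genes lay below all 13 others, with 0 lost by the size limit and a median of -1.35. Cx3cr1, the fractalkine receptor, had 13.4 and 16.5 CPM in control 2 and levodopa 2, against 32.1, 38.9 and 48.4 CPM. P2ry12, the purinergic receptor of resting microglia, had 10.01 and 11.8 CPM, against 25.3, 31.97 and 42.9 CPM. The list summed to 168 and 195 CPM, against 391.7 to 521 CPM. Btk, the kinase named in the study and expressed by microglia, had 0.316 and 0.311 CPM, against 0.599, 0.882 and 1.35 CPM.

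All 7 oligodendrocyte precursor genes lay below all 13 others (median -1.33), with Pdgfra, the growth factor receptor of these cells, at 23.4 and 23.6 CPM, against 50.4, 64.99 and 86.1 CPM. Of 14 genes of mature oligodendrocytes 11 lay below all others (median -0.86). Mal, a myelin proteolipid, had 159 and 231 CPM, against 372, 556 and 765 CPM, while Trf, transferrin, lay within their range. Of 12 astrocyte genes 3 lay below and 1 above all others (median -0.32), against 25.8% of all genes below and 21.2% above. The transporters differed: Slc1a2, the forebrain-rich glutamate transporter GLT-1, had 884 and 1157 CPM, against 1452, 2021 and 2328 CPM, and the bicarbonate transporter gene Slc4a4 had 596 and 544 CPM, against 116, 299 and 396 CPM. Of 17 endothelial and pericyte genes and 11 leptomeningeal genes, 0 lay outside the range of the 13 in both libraries. Of 10 immediate early genes 1, Npas4, lay below all others (median -0.64).

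Within gene families the gained and lost members were often different paralogs. Among 15 GABA-A receptor subunits, Gabra6 and Gabrd were gained and Gabra3, Gabra5, Gabrg3, Gabre and Gabrq were lost. Gabra5, the alpha5 subunit of hippocampus, had 2.27 and 4.36 CPM in control 2 and levodopa 2, against 31.7, 43.2 and 85.03 CPM, and Gabra3 had 19.2 and 24.4 CPM, against 109, 137 and 164 CPM. Gabrb2, which lies in the same gene cluster as Gabra6 on chromosome 11, differed by 0.57 and did not lie above all 13 others.

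The 4 cerebellins, secreted synapse organizers, divided evenly: Cbln1 (4.26) and Cbln3 (9.64) were gained, and Cbln2 (-4.36) and Cbln4 (-3.03) were lost. Cbln1, which links parallel fibres to Purkinje cells, had 786 and 634 CPM, against 11.8, 31.4 and 117 CPM. Cbln2 had 0.158 and 4.32 CPM, against 22.9, 36.5 and 57.5 CPM. Among NMDA receptor subunits Grin2c was gained and Grin2b lost. Grin2b had 29.6 and 26.8 CPM, against 92.3, 203 and 288 CPM, while the obligatory subunit Grin1 differed by 0.22. Metabotropic glutamate receptors showed the same split, with Grm4, the presynaptic receptor of parallel fibres, at 521 and 382 CPM, against 23.5, 45.98 and 67.1 CPM, and Grm5 at 8.28 and 20.7 CPM, against 103, 165 and 262 CPM. The AMPA receptor subunit Gria4 lay above all others (1.97), as did the potassium channel genes Kcnc1 (1.86) and Kcnd2 (1.45), whereas Kcna4 (-3.43) and Kcnc2 (-3.17) were lost. Lost vesicular transporters were Slc17a8 (-3.41), Slc18a2 (-4.28) and the acetylcholine transporter Slc18a3 (-2.79), and the inhibitory Slc32a1 differed by -0.06.

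Of the Zic factors, which act in granule precursors, Zic1, Zic2 and Zic5 were gained, with Zic1 at 926 and 739 CPM, against 34.95, 114 and 166 CPM. Zic4 differed by 1.53 and lay above all others. All 4 NFI factors, whose half-site is marked in the Gabra6 and Cbln3 promoters above and which are known to regulate Gabra6 in mouse granule cells, lay above all 13 others. Their differences were 1.26 for Nfia, 1.36 for Nfib, 1.43 for Nfic and 1.61 for Nfix, below the size limit of a gained gene.

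**Figure D4:**
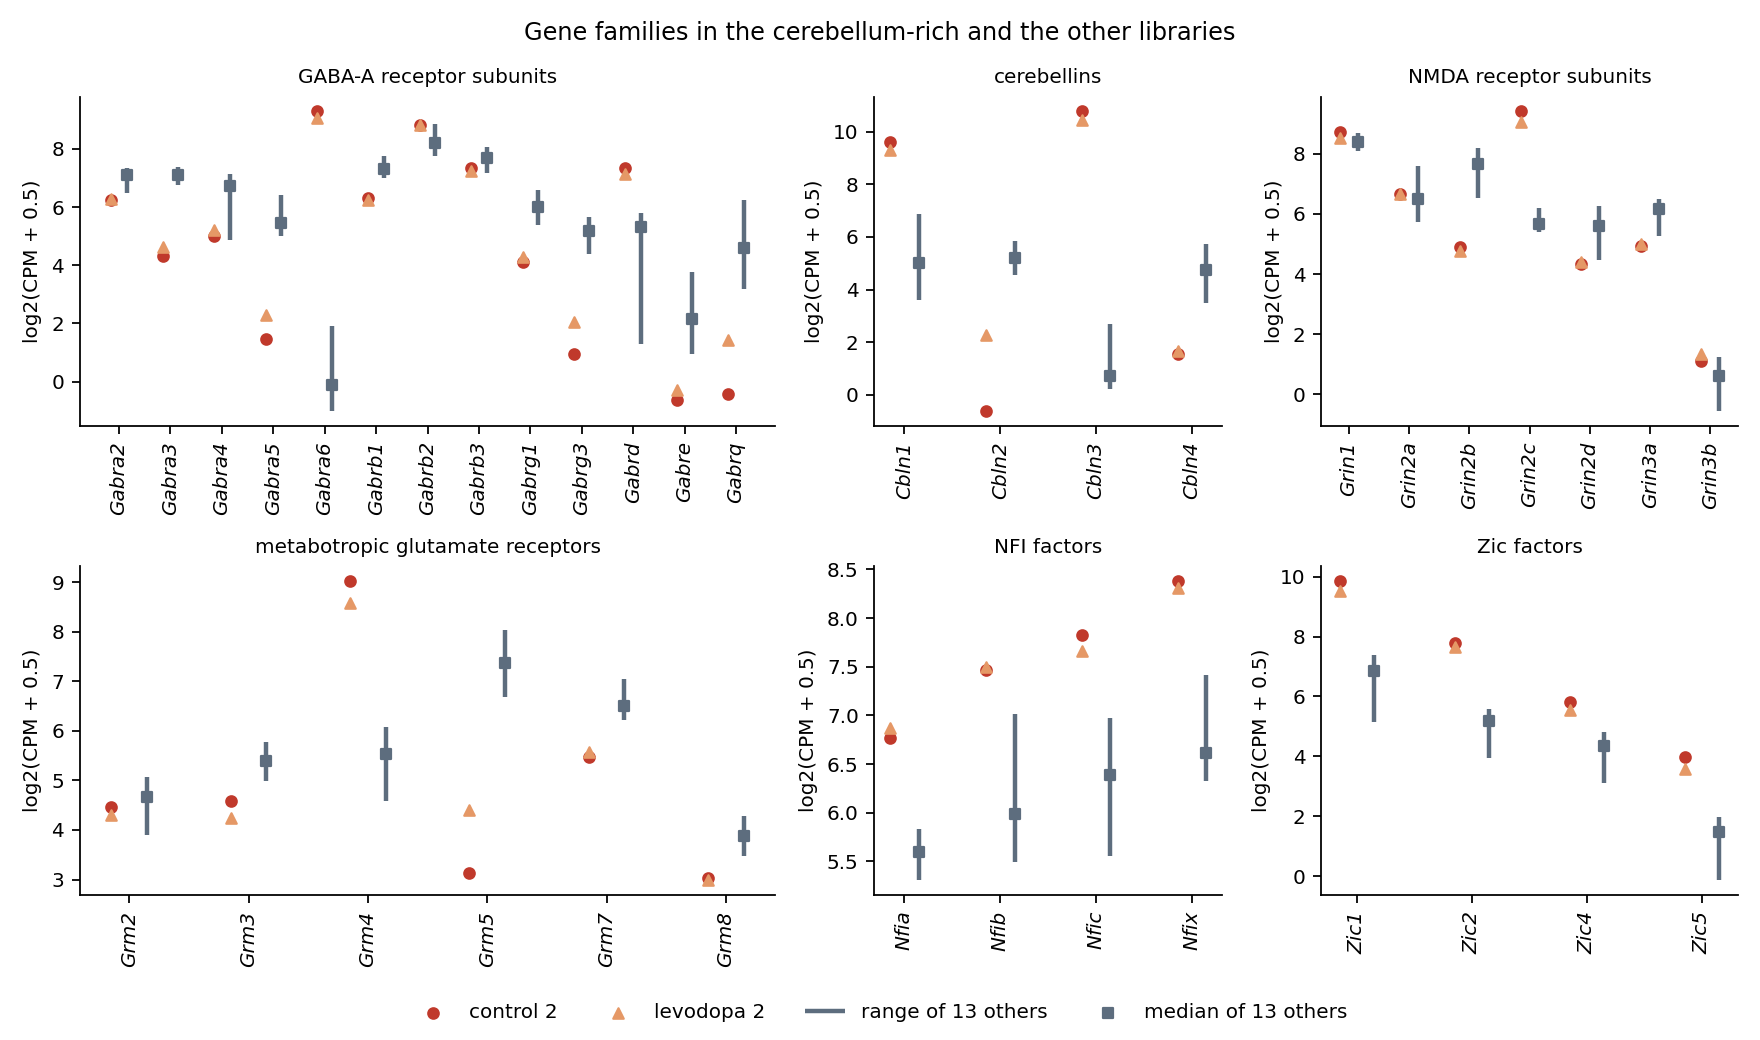
Levels on the log2(CPM + 0.5) scale (y axis) of members of 6 gene families (x axis), with control 2 as red circles, levodopa 2 as orange triangles, and the range and median of the 13 other libraries as grey-blue lines and squares. Gabra6, Cbln3, Grin2c and Grm4 lie above the grey range and Gabra5, Cbln2, Grin2b and Grm5 below it.

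Genes whose human counterparts are mutated in inherited ataxias were followed as a list of 26 above 1 CPM. Of these, 5 were gained, 13 lay above and 2 below all 13 others, with a median of 0.44. Cacna1a, Itpr1 and Car8 were among the 5. Cacna1a, the P/Q-type calcium channel subunit, had 617 and 512 CPM in control 2 and levodopa 2, against 108, 128 and 169 CPM. Several members used in every cell stayed near 0, such as Atxn2 (0.08), the elongation factor Eef2 (-0.08) and the mitochondrial protease gene Afg3l2 (-0.03).

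The cerebellum-rich libraries differed from each other as well, a comparison of 1 library with 1 that has no replicate check. Gained genes were lower in levodopa 2 than in control 2 in 262 of 316 cases and higher in 54, with a median difference of -0.19 on the log2 scale, or -12.6%. Lost genes were higher in levodopa 2 in 498 of 575 cases and lower in 68, with a median of 0.52. More than 2-fold differences were found in 126 lost genes with the higher value in levodopa 2 and in 0 with the higher value in control 2. For gained genes these counts were 1 and 7, and over all 15830 genes they were 218 and 78. Over all 15830 genes, 8078 were higher in levodopa 2, and the median was 0.00.

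Named genes with the larger value in levodopa 2 belonged to several regions. Shox2, a factor of thalamus and midbrain, had 10.2 CPM in levodopa 2 and 0 CPM in control 2, and Six3, a factor of the anterior forebrain, had 7.19 and 0 CPM. Tcf7l2, a thalamic Wnt effector, had 38.1 CPM in levodopa 2 and 4.58 CPM in control 2, and Nrgn had 32.9 and 2.46 CPM. Dbh, the enzyme that forms noradrenaline, had 3.73 CPM in levodopa 2 and 0 CPM in control 2, and the noradrenaline transporter gene Slc6a2 had 4.6 and 0 CPM. Dbh and Slc6a2 were higher in levodopa 2 than in any of the 13, whose highest values were 2.92 and 3.19 CPM in control 3. Higher in control 2 were Ttr, as given above, the choroid plexus gene Kl (1.26 CPM in levodopa 2 and 5.81 CPM in control 2), Otx2, a homeobox factor of choroid plexus and midbrain (2.45 and 14.6 CPM), and Fosb, an activity-induced factor (2.11 and 16.1 CPM).

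Within the groups, the median difference of the 316 gained genes was 2.77 for control 2 minus the other controls and 2.61 for levodopa 2 minus the other levodopa libraries, and that of the 575 lost genes was -2.82 and -2.32. These genes were chosen on the same libraries, so the direction was fixed by the choice. Against the 4 other control and levodopa libraries alone, the list medians were -1.32 for microglia, -0.93 for oligodendrocytes and -0.13 for endothelium and pericytes.

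Each treatment comparison that uses the control or the levodopa group holds a cerebellum-rich library, and these comparisons share those libraries. They were fitted with edgeR's quasi-likelihood test on all 15 libraries (21821 genes) and again without control 2 and levodopa 2 (22324 genes), which leaves 2 libraries in each of these groups. Across all genes, edgeR's biological coefficient of variation was 0.355 with all 15 libraries and 0.220 without the 2. Low-dose inhibitor against control gave 1178 genes (5.40%) with a Benjamini-Hochberg adjusted p under 0.05, 598 higher and 580 lower, and 1859 genes (8.33%) without the cerebellum-rich libraries, of which 957 were called in both fits. High-dose inhibitor against control gave 82 genes (0.376%) and 165 genes (0.739%), with 68 called in both. Leaving out single libraries lowered most of these counts, to 248 for the low dose and 17 for the high dose without control 2 alone, to 325 and 19 without control 3, and to 78 for the low dose without low-dose 3, while without control 1 they were 1444 and 65. Without low-dose 1 or 2 the low dose gave 487 or 610, and without high-dose 1, 2 or 3 the high dose gave 15, 18 or 30. MPTP against control, levodopa against control and levodopa against MPTP gave 0 calls in both fits, and DESeq2 called 53, 55 and 2. In edgeR, 1445, 816 and 645 of 21821 genes had an unadjusted p under 0.05 with all libraries. Without the 2, these counts were 1598, 1693 and 506 of 22324. Where nothing differs, a share of 0.05 would be reached. With all libraries, 816 and 645 were below that share and 1445 was above it.

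The medians of the gained and lost genes differed between the fits. Of 314 gained genes tested for the low dose against control, 17 were called with all libraries and 59 without the cerebellum-rich ones. Of 575 lost genes, 6 and 73 were called. Over all genes tested, 5.40% and 8.33% were called in the same order, so the 17 gained genes were near the share of all genes. The 6 lost genes were below that share. Without the cerebellum-rich libraries, the 59 gained and 73 lost genes were above the share of all genes. The reason for these shares was not tested. The median log2 fold change of gained genes in MPTP against control was -1.81 with all libraries and -0.02 without, and in levodopa against MPTP it was 1.60 and 0.07. For lost genes these medians were 0.50 and -0.01 in MPTP against control, and -0.41 and 0.05 in levodopa against MPTP. Their signs with all libraries follow from how the genes were chosen, since the control and levodopa groups each hold one of the libraries used. In levodopa against control, where each side holds 1 of these libraries, the gained genes had medians of -0.16 with all libraries and 0.05 without.

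Single genes show how far the values moved. For Car8, the log2 fold change of MPTP against control was -5.00 with all libraries. Car8 is a gained gene, so this sign follows from how it was chosen, and no test is given for the value. Without the 2, the log2 fold change of Car8 was -0.06 (SE 0.24, edgeR adjusted p = 1). For Cx3cr1 the log2 fold change was 0.30 (SE 0.37, edgeR adjusted p = 0.813) with all libraries and -0.08 (SE 0.14, edgeR adjusted p = 0.997) without the 2. Both values were smaller than their SE, so neither fit settled a sign. For Nr4a2 it was 0.40 (SE 0.56, edgeR adjusted p = 0.83) and 1.24 (SE 0.52, edgeR adjusted p = 0.642). None of the values given with a test passed the threshold.

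**Figure D5:**
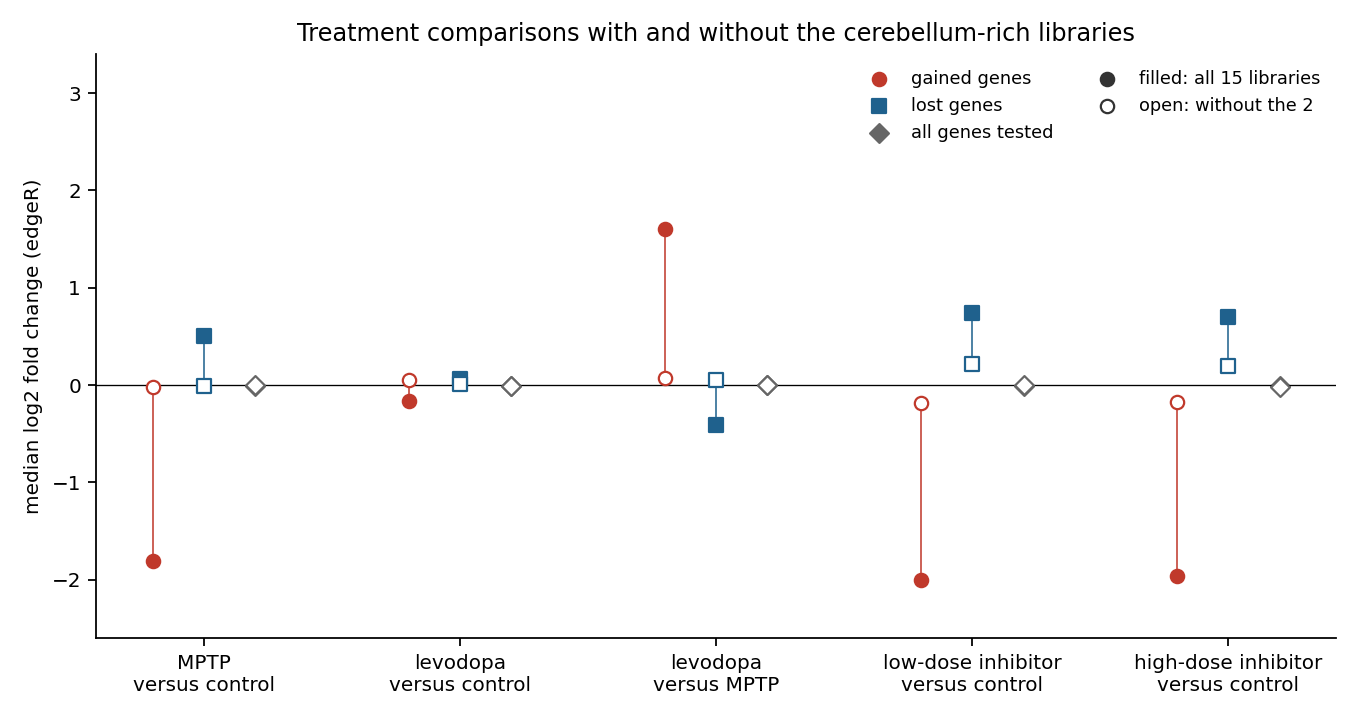
Median edgeR log2 fold change (y axis) of 314 gained genes (red circles), 575 lost genes (blue squares) and all tested genes (grey diamonds) in 5 treatment comparisons (x axis), with filled symbols for all 15 libraries and open symbols for the fit without control 2 and levodopa 2. The gained-gene median for MPTP against control lies at -1.81 with all libraries and at -0.02 without them.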

How the data were processed

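Each of the 15 deposited files holds whole-number counts for 45777 gene symbols, which the authors made from libraries of the TruSeq Stranded mRNA kit, per the labels' protocols. The submitters' processing notes name the tools HISAT2 2.1.0, StringTie 2.1.3b, Trimmomatic and bcl2fastq 2.20.0 and the build GRCm38 (mm10). No source used here gives the annotation, the strand setting or the handling of reads shared by genes, so overlapping genes, antisense genes and near-identical copies are uncertain.

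CPM is the count divided by the library total of all symbols and multiplied by 1000000. It is not corrected for gene length, so levels of different genes are not compared. The 2 cerebellum-rich libraries were set against the 13 others by differences of mean log2(CPM + 0.5), for genes with a mean of at least 1 CPM, with no test. Named genes were the 15 with the largest difference in each direction among gained and lost genes, leaving out predicted genes, plus members of 34 gene lists (403 of 404 entries matched) that were gained or lost, and members of the 4 cerebellar cell lists and of the families. Some of these genes are not reported here. Other list members, genes compared between control 2 and levodopa 2, and neighbouring gene pairs were named after their values were seen. Members and lists were chosen with earlier results of these data known. Coordinates and promoters come from RefSeq tables (GRCm38.p6), which held 40686 of the symbols. Counting floors cover counting error only.

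Treatment comparisons used edgeR 4.0.16 (R 4.3.3) on the counts, with TMM normalization, filterByExpr, a quasi-likelihood fit over all groups and Benjamini-Hochberg adjustment at 0.05, and the code was tested on simulated data. The standard error of a log2 fold change is its size over the root of the F statistic. Alternatives were DESeq2 1.42.0, size factors, other filters and pseudocounts, a term for the cerebellum-rich libraries, the replicate block, and the omission of single libraries. Same-numbered control and levodopa libraries deviated together (correlations of 0.286, 0.801 and 0.368 for replicates 1, 2 and 3, replicate 2 being the cerebellum-rich pair). In no other pair of groups did every replicate exceed a correlation of 0.1. The deviations were taken from group means that include replicate 2, so its shift also enters the values for replicates 1 and 3. These correlations therefore do not establish that the numbers pair libraries.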

Additional observations from a re-analysis of the deposited data

How the results depend on the processing

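The counts of 316 gained and 575 lost genes stayed within 1.5 times under other scalings, filters, pseudocounts and sets of libraries, and when single libraries were left out (293 to 348 gained, 498 to 709 lost). They became 1002 and 1820 when the size limit was lowered to a log2 difference of 1. Of 2880 values for 120 named or listed genes under the alternatives, 0 changed sign and 74 moved by more than the spread over the 13 libraries. All 120 were gained or lost genes, with both libraries on the same side of all 13. Leaving out libraries could therefore not change a sign, and the filters and the size limit do not alter the difference of a gene. Counts of treatment calls were less stable. For the low and the high inhibitor dose against control, the counts of 1178 and 82 called genes became 1859 and 165 without the cerebellum-rich libraries, 2688 and 558 with a term for them, 571 and 35 with no filter on low counts, and 2689 and 1374 with DESeq2. With the replicate block they were 1066 and 46, and in the levodopa against control comparison the block called 0 genes. DESeq2 called 53 genes for MPTP against control, 55 for levodopa against control and 2 for levodopa against MPTP, and gave no adjusted p for Car8. When single libraries were left out, the low dose gave 78 to 1444 calls and the high dose 15 to 65, with 248 and 17 without control 2, 325 and 19 without control 3, and 1444 and 65 without control 1. Without low-dose 1, 2 or 3 the low dose gave 487, 610 or 78, and without high-dose 1, 2 or 3 the high dose gave 15, 18 or 30. MPTP against control gave 0 in each of these fits, and both levodopa comparisons gave 0, except 1 without levodopa 3 (0 to 1). In these fits the pair left in a group was assumed to vary like the other groups. The log2 fold change of Cx3cr1 in MPTP against control was -0.076 without the cerebellum-rich libraries and -0.004 with a term for them, and ran from -0.076 to 0.579 when single libraries were left out. That of Nr4a2 ran from -0.116 to 1.240. The cause was not tested. Depth limited genes with few reads, such as the Hox genes.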
